A study of Danio rerio with 12 samples.

Results

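The gata6 locus was described as the set of accessible chromatin regions within 50 kb of the transcription start site (TSS) of gata6 on either side. gata6 (ENSDARG00000035831) lies on the minus strand of Zv9_scaffold3540 in the Zv9 assembly, with a gene body from 164849 to 175324 and its TSS at 175324, so that higher coordinates are upstream of the gene. Overlapping peaks (1 bp or more) of the 12 deposited ATAC-seq lists were joined, and every joined region that reached into the window from 125324 to 225324 was taken. These were 26 of the 245646 merged regions and 26 of the 62 on this scaffold. Of them, 14 lay upstream of the TSS, 1 spanned it, 3 lay in the gene body and 8 lay downstream of the gene. In the order of genes of the RefSeq annotation of GRCz12tu, the protein-coding neighbours of gata6 are mib1, a ubiquitin ligase of Notch signalling, and cables1, which codes for a partner of cyclin-dependent kinases. Which gene a region acts on was not tested. Exons and introns of Zv9 and its sequence were not used here.

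Gata6 is a zinc-finger transcription factor of the GATA family that takes part in the formation of the endoderm and of organs derived from it, among them the liver and the pancreas. Retinoic acid (RA) is a signalling molecule that patterns the endoderm along its axis. It binds the retinoic acid receptors (RAR), which sit with RXR partners on DNA and exchange corepressors for coactivators once RA is bound. BMS493 is an inverse agonist of the RARs and keeps corepressors on them.

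All embryos came from crosses of Tg(sox17:GFP) fish, in which GFP marks the endoderm, and all groups were collected at the 3-somites stage. The 4 groups of 3 samples were GFP+ endodermal cells of embryos treated with DMSO (the solvent control), with RA or with BMS493 from the 2-cell stage on, and the GFP- cells of embryos given DMSO, called non-endodermal (NE). NE is thus a mixture of every cell type that lacked the reporter, and the identity of the cells rests on the sort, since the lists hold no expression values. Nothing in the labels says that the samples of a group came from separate batches of embryos, so that the tests measure the spread between these samples.

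In ATAC-seq, a transposase cuts open chromatin, and MACS2 calls peaks where the cuts pile up. Each list gives for a peak its pileup, counted as extended tags over the summit, and its fold enrichment over the local background of the same sample. The samples had 11056595 to 22930744 tags after filtering, with the shortest list in DMSO replicate 1 (51301 peaks) and the longest in NE replicate 2 (143755 peaks). Heights were therefore given as the scaled pileup, which is the pileup per 1000000 filtered tags, and as the percentile rank of the pileup within the list of the sample. An uncalled region was set to rank 0, although signal below the calling threshold is not listed and such a region need not be closed. In sorted bulk samples, a lower share of cells with an open region and a weaker opening in every cell cannot be told apart.

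The locus held regions of very different constancy. Of the 26 regions, 6 were called in all 12 samples (23.1%, against 11.6% of all merged regions), and 3 were called in 1 sample (11.5%, against 36.2%). The regions were 80 to 891 bp wide, with a median of 370.5 bp, and the median over all merged regions was 193 bp. In NE, 12, 17 and 15 of the 26 regions had a peak in replicates 1, 2 and 3. In DMSO the numbers were 14, 17 and 20, in RA 23, 17 and 19, and in BMS493 15, 15 and 14. Of all merged regions, the same samples called 36.2%, 55.7% and 39.5% in NE, 19.5%, 41.7% and 46.3% in DMSO, 44.8%, 35.6% and 31.3% in RA and 28.9%, 44% and 32.5% in BMS493. These shares differ with the lengths of the lists, and the part of list length in the numbers for the locus was not tested.

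**Figure D1:**
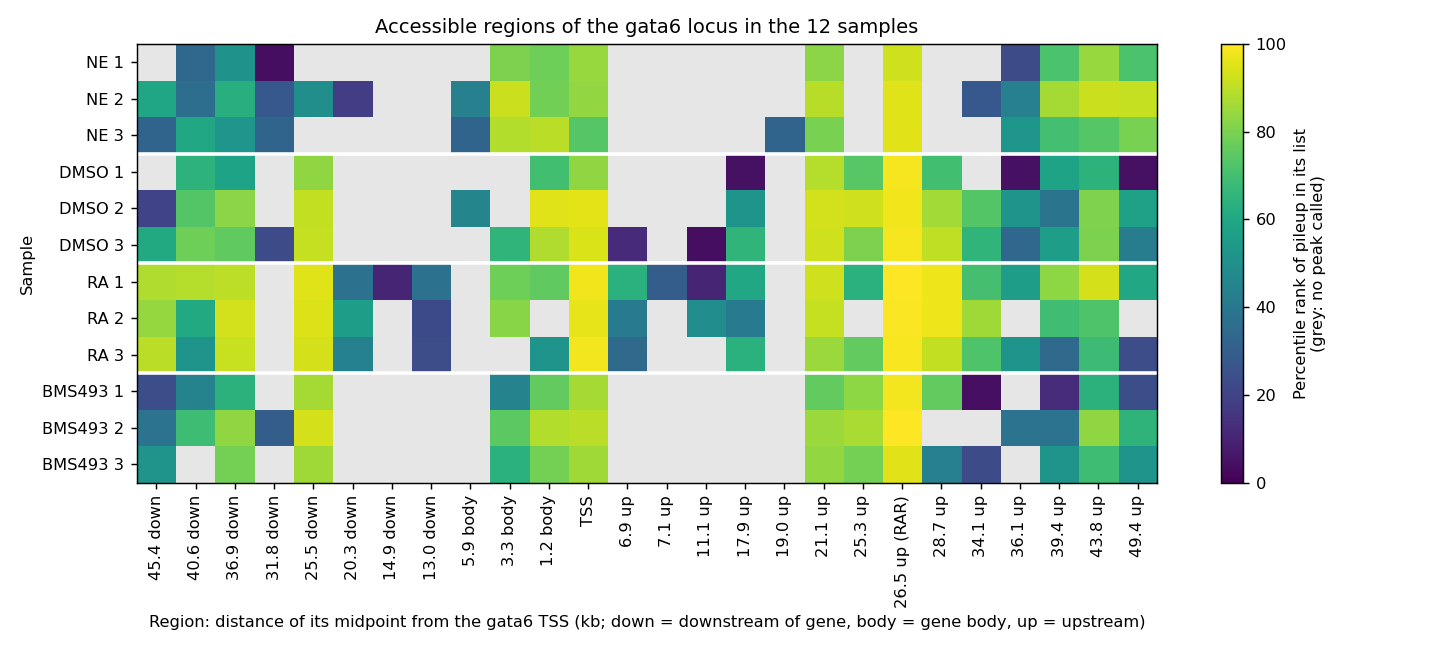
Percentile rank of the pileup (colour, 0 to 100) of the 26 regions of the gata6 locus (columns, in order along the scaffold, labelled by distance from the TSS in kb) in the 12 samples (rows, 3 per group). Grey marks samples that did not call a region. The region at the RAR site, 26.5 kb upstream, ranked between 93.0 and 99.9 in the 12 samples, and the regions 25.3 and 28.7 kb upstream of the TSS were grey in all NE samples.

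The tallest region of the locus in each of the 12 samples was the region 26.5 kb upstream of the TSS, from 201525 to 202093. It overlaps the RAR-binding site that the study assigned to gata6 from chromatin immunoprecipitation, and it is called the RAR-site region here. That experiment pulled down a Myc-tagged RARaa from whole embryos injected with its mRNA and given RA before collection. Binding of RAR in the sorted cells of the 4 groups was not measured. The summits of the RAR-site region lay between 201836 and 201938, a range of 102 bp, and 12 of 12 summits fell inside the RAR site. The scaled pileup was 1.80, 1.70 and 2.62 in NE replicates 1, 2 and 3, and 2.93, 2.85 and 2.74 in DMSO. In RA it was 4.93, 3.33 and 3.28, and in BMS493 it was 2.46, 3.82 and 1.99. All RA samples lay above all DMSO samples and all DMSO samples above all NE samples, whereas BMS493 ranged from below DMSO to above 2 of the RA samples.

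The mean scaled pileup at the RAR-site region was 2.04 ± 0.505 for the NE samples and 2.84 ± 0.0968 for DMSO, against 3.85 ± 0.939 for RA and 2.76 ± 0.95 for BMS493 (SD, n = 3 each). The ratio of means was 1.39 for DMSO over NE, 1.36 for RA over DMSO and 0.972 for BMS493 over DMSO. On the log2 scale of scaled pileup with 0.1 added, RA exceeded DMSO by 0.40 ± 0.23 (SE), and the limma adjusted p was 0.691. DMSO over NE (0.48, limma adjusted p = 0.361) and RA over BMS493 (0.49, limma adjusted p = 0.564) did not pass the test on that scale either. Fold enrichment did not follow the pileup, with means of 12.9 ± 0.745 for NE, 11.7 ± 1.56 for DMSO, 11.5 ± 0.971 for RA and 12.6 ± 2.47 for BMS493 (SD, n = 3 each).

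By percentile rank, the RAR-site region stood at 93.0, 95.1 and 95.5 in NE, at 98.6, 97.8 and 98.8 in DMSO, at 99.9, 99.5 and 98.9 in RA and at 98.3, 99.7 and 95.3 in BMS493. In RA replicate 1, 93 of the 116700 peaks of the list were as high or higher, against 7119 of 95779 in NE replicate 1. These are the highest and the lowest rank of the 12 samples. Other samples lay closer, with 4325 of 86750 in BMS493 replicate 3 and 4898 of 103930 in NE replicate 3. The 9 endodermal samples averaged 98.5 ± 1.38 (SD) and the 3 NE samples 94.5 ± 1.37, a difference of 4.0 points (exact two-sided permutation test over the 220 assignments of samples, p = 0.00909, the smallest possible being 0.00455). The region therefore ranked at 93.0 or above in every list, and was higher in mean rank in the endodermal samples pooled over treatments. Those 9 samples hold the DMSO, RA and BMS493 groups, whereas NE had DMSO alone. Treatment was thus not held equal in this difference. BMS493 replicate 3, at 95.3, was the only endodermal sample below an NE sample. With the rank of −log10(q) in place of the pileup, the difference was 1.43 points and did not pass the threshold (exact permutation p = 0.114). limma did not call this region between DMSO and NE (3.84 ± 2.61 points, SE, adjusted p = 0.490) or between RA and DMSO (1.09 points, adjusted p = 1). The part of the percentile scale above the RAR-site region is narrow, so that a rank can rise little there.

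The region over the TSS, from 175058 to 175663, was also called in all 12 samples. Its scaled pileup was 1.34, 1.09 and 1.18 in the NE samples, 1.42, 2.49 and 1.88 in the DMSO samples, 3.44, 2.28 and 2.96 in the RA samples and 1.36, 1.87 and 1.37 in the BMS493 samples. NE was below every endodermal sample, and RA overlapped DMSO through DMSO replicate 2. The mean was 1.2 ± 0.125 for NE and 1.93 ± 0.535 for DMSO, against 2.89 ± 0.579 for RA and 1.54 ± 0.293 for BMS493 (SD, n = 3 each), which is a ratio of 1.5 for RA over DMSO and 1.89 for RA over BMS493. Here fold enrichment ran in the same order as the pileup, from 5.95 ± 0.195 in NE, 6.78 ± 0.766 in BMS493 and 7.31 ± 0.378 in DMSO to 10.1 ± 1.73 in RA (SD, n = 3 each).

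By rank, the TSS region stood at 84.5, 83.8 and 73.8 in NE, at 83.4, 96.0 and 94.2 in DMSO, at 97.9, 96.3 and 98.1 in RA and at 86.6, 89.7 and 85.7 in BMS493. The 9 endodermal samples, pooled over the treatments, exceeded the 3 NE samples by 11.3 points on average (exact two-sided permutation p = 0.0136). Treatment was not held equal here either. Without NE replicate 3 the difference was 7.83 points (exact permutation p = 0.145), and with calls that cover 50% of a region it was 45.3 points (exact permutation p = 0.0864). DMSO exceeded NE by 10.5 ± 4.45 points (SE, limma adjusted p = 0.208). RA exceeded DMSO by 6.23 points (limma adjusted p = 0.937), or by 2.32 points without DMSO replicate 1, and BMS493 by 10.1 points (limma adjusted p = 0.479), so that neither passed the test, although the ranks of the RA samples lay above those of both other groups without overlap. The peaks covered 529, 569 and 499 bp of this region in RA, 248, 560 and 356 bp in DMSO, 312, 470 and 227 bp in BMS493 and 265, 425 and 257 bp in NE.

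DMSO-treated endodermal cells were compared with NE cells of the same treatment to find where the locus differed between germ layers. Of the 26 regions, 23 were called in at least 3 samples and could be tested with limma on the percentile ranks, with adjustment over all 127026 regions tested. 3 regions were higher in DMSO at an adjusted p under 0.05, where 2.16% of all regions tested were. None was lower, where 4.91% of all regions were, while 5 were higher and 2 lower at an unadjusted p under 0.05 (5.86% and 12.5% of all regions tested). The median difference over the 23 regions was 2.18 points, and −3.78 points over all regions tested. 3 regions were called in every DMSO sample and in no NE sample (1.1% of all regions called in either group), and none in every NE sample and in no DMSO sample (2.82% of all). The ranks of the samples did not overlap at 6 regions with DMSO above NE, where 4.68% of all tested regions had this order, and at 3 regions with NE above DMSO, where 13.1% had it.

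The 3 regions that were higher in DMSO lay on both sides of the gene. The region 25.5 kb downstream of the TSS, from 149596 to 149979, was called in NE replicate 2 alone among the NE samples, at rank 49.5, and stood between 83.4 and 95.0 in all 9 endodermal samples. DMSO exceeded NE there by 72.0 ± 11 points (SE, limma adjusted p = 0.000993). The mean scaled pileup was 1.66 ± 0.250 in DMSO, 2.34 ± 0.371 in RA and 1.65 ± 0.494 in BMS493 (SD, n = 3 each). The endodermal samples did not overlap with NE, since the lowest endodermal rank lay above that of the single NE sample with a peak.

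The other pair flanked the RAR-site region. The region 25.3 kb upstream, from 200513 to 200783, had no peak in NE and ranked at 74.0, 92.6 and 80.3 in DMSO, which is 82.3 ± 17.2 points above NE (SE, limma adjusted p = 0.00637). It stood at 83.2, 87.5 and 79.1 in BMS493 and at 63.9, 0 and 75.8 in RA, where replicate 2 had no peak. The region 28.7 kb upstream, from 203814 to 204141, had no peak in NE and ranked at 69.7, 86.1 and 90.4 in DMSO, 82.1 ± 16.6 points above NE (SE, limma adjusted p = 0.00508). It stood at 97.4, 97.3 and 90.8 in RA and at 75.8, 0 and 43.7 in BMS493, where replicate 2 had no peak. At both regions every DMSO sample was above every NE sample, and the sample without a peak belonged to RA at one and to BMS493 at the other.

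A further region that no NE sample called, 17.9 kb upstream (193052 to 193469), was called in all DMSO and all RA samples and in no BMS493 sample. Its ranks were 4.6, 51.9 and 65.3 in DMSO and 60.0, 41.7 and 63.9 in RA, and its mean scaled pileup was 0.736 ± 0.202 in DMSO and 0.913 ± 0.226 in RA (SD, n = 3 each). Of all merged regions, 29 had this pattern of calls (0.0118%). All merged regions include 89033 that were called in 1 sample and could not show it, and the share is no test. Its peaks were low, with DMSO replicate 1 just above the floor of its list. limma gave 40.6 points for DMSO over NE (adjusted p = 0.171) and the same size for DMSO over BMS493 (adjusted p = 1). DMSO over NE passed the threshold at this region without DMSO replicate 1 (58.6 points, limma adjusted p = 0.0208) and on the log2 scale of the scaled pileup (3.03, limma adjusted p = 0.0213), where 4 regions of the locus were higher in DMSO. Of the 127026 regions tested on that scale, 3139 were higher and 4644 lower. With peaks of a −log10(q) of at least 3, with lists of equal length or with calls that cover 50% of a region, no region of the locus was called in every DMSO and no BMS493 sample.

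The 3 regions where all NE samples ranked above all DMSO samples lay in the gene body and in the upstream part of the window. Smaller negative estimates for DMSO against NE were also found elsewhere, such as 31.8 kb downstream (−13.7 points, limma adjusted p = 0.589). The region 3.3 kb into the gene body (171807 to 172224) ranked at 80.3, 91.8 and 88.6 in NE and at 65.3 in DMSO replicate 3, with no peak in the other DMSO samples. The difference was −65.2 points (limma adjusted p = 0.0754). The region 49.4 kb upstream ranked at 71.6, 91.1 and 79.8 in NE and at 4.6, 57.4 and 42.2 in DMSO, a difference of −46.1 points (limma adjusted p = 0.185). At both regions the ranks of all NE samples lay above those of all DMSO samples, as they also did 39.4 kb upstream, with 71.6, 86.3 and 70.0 in NE and 57.9, 38.4 and 55.7 in DMSO. The latter region had a peak in all 12 samples and ranked at 83.1, 69.2 and 34.6 in RA and at 12.5, 38.1 and 51.7 in BMS493.

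**Figure D2:**
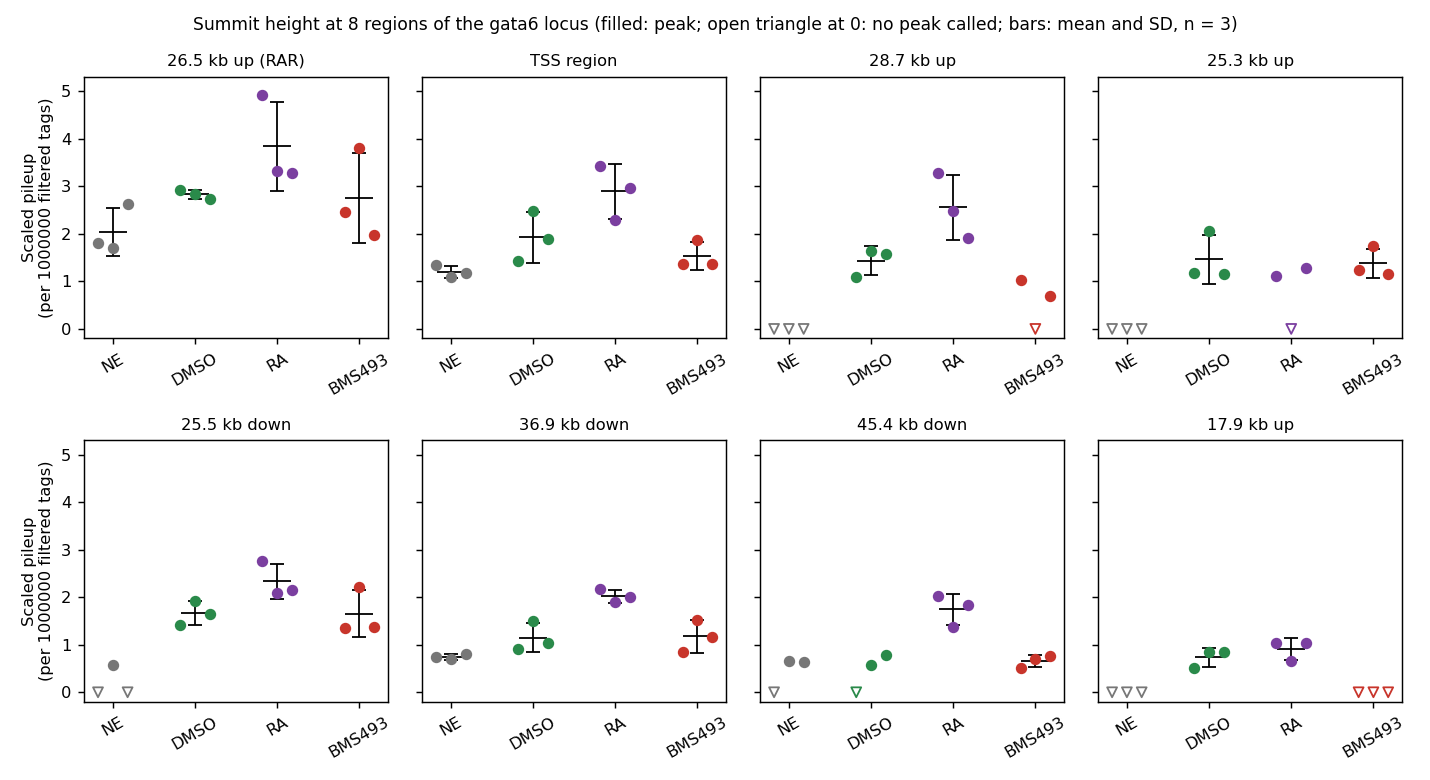
Scaled pileup per 1000000 filtered tags (vertical axis) of each sample at 8 regions of the locus, with the mean and SD of a group (black bars, n = 3) where all its samples had a peak. Open triangles at 0 mark samples without a peak. At the RAR-site region and 36.9 and 45.4 kb downstream the 3 RA samples sat above all DMSO samples, and 17.9 kb upstream no NE and no BMS493 sample had a peak.

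The number of regions called between DMSO and NE depended on the lists and on DMSO replicate 1. With every list shortened to the 51301 peaks of highest −log10(q), 7 regions were higher in DMSO and 2 lower. Those added on the higher side were the TSS region, the RAR-site region and the regions 21.1 kb upstream and 36.9 kb downstream, and those on the lower side lay 3.3 kb into the gene body and 49.4 kb upstream. At this length 6.68% of all regions tested were higher and 7.38% lower. Without DMSO replicate 1, 6 regions were higher, where 4.22% of all regions were, and the median difference over all regions was 1.09 points. Without DMSO replicate 3 and without RA replicate 3, the region 3.3 kb into the gene body was lower in DMSO (limma adjusted p = 0.0272 and 0.0236). Of all regions tested in these fits, 5045 of 120717 and 5347 of 124080 were lower. In a fit of the 2 groups alone no region was called, neither in the locus nor among all 95041 regions tested. The limma adjusted p-values of the 3 regions were then between 0.0556 and 0.0680.

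RA-treated and DMSO-treated endodermal cells were compared to find the response of the locus to added RA. limma called no region of the locus in either direction, where 0.194% of all regions tested were higher and 0.0362% lower, and 5 regions were higher and 1 lower at an unadjusted p under 0.05 (4.44% and 2.54% of all regions tested). The 246 higher and 46 lower calls behind the shares at the adjusted p fell to 0 and 1 with a replicate block, and to between 0 and 94 higher and between 1 and 240 lower when single samples were left out. The estimate was positive at 16 of the 23 regions and negative at 7, with a median of 6.23 points against 0 points over all regions tested. The regions 20.3 and 13.0 kb downstream and 6.9 and 11.1 kb upstream passed the filter of 3 samples only through their RA calls. This favours a higher value in RA there, so that the count of signs and the median are no test of a response. The regions 20.3 and 13.0 kb downstream and 6.9 kb upstream were among the 5 higher at an unadjusted p under 0.05. That count is therefore no test of a response either. 2 regions were called in every RA sample and no DMSO sample (0.963% of all regions called in either group) and none in every DMSO sample and no RA sample (0.357%). At 9 regions the ranks of all RA samples lay above those of all DMSO samples (5.27% of all tested regions), and at none was the order the opposite (1.97%). These 9 again include the regions 20.3 and 13.0 kb downstream and 6.9 kb upstream, so that this count is no test of a response.

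The 2 regions called in RA and not in DMSO were low peaks between the gene and the downstream end of the window. The region 20.3 kb downstream of the TSS (154771 to 155241) ranked at 37.6, 55.5 and 44.0 in RA, at 18.0 in NE replicate 2 and had no peak in the other 8 samples. RA exceeded DMSO there by 45.7 ± 11 points (SE, limma adjusted p = 0.103). Both regions passed the filter of 3 samples only through their RA calls, so that their p-values are no support for a response. The region 13.0 kb downstream (162179 to 162376) ranked at 37.6, 22.6 and 23.5 in RA and had no peak in any other sample, with a difference of 27.9 ± 7.24 points (SE, limma adjusted p = 0.141). This was the only region of the locus called in all RA samples and nowhere else, a pattern of 0.308% of all merged regions. That share also counts regions called in 1 sample, which could not show the pattern, and it is no test.

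Other regions were called in several groups and stood higher in RA. The region 45.4 kb downstream (129796 to 130066) ranked at 88.1, 84.0 and 89.6 in RA, at 0, 20.2 and 60.9 in DMSO, at 23.9, 38.1 and 51.7 in BMS493 and at 0, 59.2 and 32.3 in NE. Its mean scaled pileup was 1.74 ± 0.334 in RA and 0.655 ± 0.122 in BMS493 (SD, n = 3 each), a ratio of 2.66, and all RA samples lay far above the 9 others. limma gave 60.2 ± 18.6 points over DMSO (SE, adjusted p = 0.281), where the DMSO samples themselves spread over 60.9 points. With lists of equal length it was called higher in RA than in DMSO, by 70.4 points (limma adjusted p = 0.00502). Its calls outside RA at that length are not given here, so that this call is no support for a response.

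The region 36.9 kb downstream (138066 to 138696), called in all 12 samples, ranked at 89.9, 93.0 and 91.8 in RA, at 57.9, 82.8 and 75.5 in DMSO, at 64.3, 83.2 and 79.1 in BMS493 and at 51.1, 63.1 and 52.7 in NE. Its mean scaled pileup was 0.749 ± 0.0593 for NE and 1.15 ± 0.304 for DMSO, against 2.02 ± 0.138 for RA and 1.18 ± 0.342 for BMS493 (SD, n = 3 each), which is a ratio of 1.76 for RA over DMSO. The RA samples again stood above the other 9 without overlap. The rank difference between RA and DMSO was 19.5 ± 8.46 points (SE, limma adjusted p = 0.647).

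Nearer the gene, the region 6.9 kb upstream (182102 to 182335) ranked at 63.9, 41.7 and 34.6 in RA and at 11.9 in DMSO replicate 3, with no peak in the other 8 samples. The difference between RA and DMSO was 42.8 ± 11.2 points (SE, limma adjusted p = 0.147). This region too passed the filter of 3 samples only through its RA calls, so that the p-value is no support for a response. At the region 28.7 kb upstream, next to the RAR site, the mean scaled pileup was 2.56 ± 0.687 in RA and 1.43 ± 0.302 in DMSO (SD, n = 3 each), a ratio of 1.79, and the rank difference was 13.1 points (limma adjusted p = 0.987). All RA samples exceeded all DMSO samples at both regions.

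The gene body held the region with the most negative estimate for RA against DMSO among the 23 tested. The region 1.2 kb into the gene (173663 to 174553) ranked at 75.6, 0 and 51.8 in RA, at 69.7, 95.1 and 88.3 in DMSO, at 75.8, 88.6 and 79.1 in BMS493 and at 77.8, 78.9 and 89.8 in NE. RA replicate 2 had no peak and RA replicate 3 was below the 9 samples of the other groups, whereas RA replicate 1 lay among them. The difference between RA and DMSO was −41.9 ± 13.7 points (SE, limma adjusted p = 0.344). With lists of equal length this region was called lower in RA than in DMSO, by −77.5 points (limma adjusted p = 0.00274), and with the region 45.4 kb downstream it was 1 of the 2 regions called at that length, where 1.57% of all regions tested were higher and 0.768% lower.

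BMS493-treated and DMSO-treated cells were compared to find the response to blocked RAR activity. limma called no region of the locus, where 0% of all regions tested were higher and 0.000787% lower. Before adjustment, 0 of its regions were higher and 3 lower at a p under 0.05 (0.786% and 0.989% of all regions tested). These were the region 28.7 kb upstream (−42.2 points), the region 17.9 kb upstream (−40.6 points) and the region 21.1 kb upstream (−10.3 points), each with a limma adjusted p of 1. No region was called in every BMS493 sample and no DMSO sample (0.153% of all regions called in either group), and 1 was called in every DMSO sample and no BMS493 sample (0.161%), which is the region 17.9 kb upstream. At 2 regions, 17.9 and 21.1 kb upstream, all DMSO samples ranked above all BMS493 samples (1.15% of all tested regions), and at none did all BMS493 samples rank above all DMSO samples (1.23%).

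The region 21.1 kb upstream (196214 to 196560) was called in all 12 samples. It ranked at 89.1, 93.3 and 92.9 in DMSO, at 75.8, 84.8 and 83.8 in BMS493, at 92.8, 91.4 and 85.2 in RA and at 82.5, 89.4 and 79.8 in NE. The mean scaled pileup was 1.86 ± 0.244 in DMSO and 1.31 ± 0.280 in BMS493 (SD, n = 3 each), a ratio of 0.707. The BMS493 samples were the lowest endodermal samples at this region and lay in the range of NE or just below it.

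RA and BMS493 were set against each other as the conditions with added and blocked signal. Again limma called none of the 23 regions, where 0.625% of all regions tested were higher and 0.131% lower, and 9 were higher and 2 lower at an unadjusted p under 0.05 (5.64% and 3.47% of all regions tested). The 794 higher and 167 lower calls behind the shares at the adjusted p ran from 1 to 1333 higher and from 1 to 499 lower when single samples were left out, with 1 higher without RA replicate 2 or 3 and 2 without NE replicate 1 or 3. The estimate was positive at 17 regions and negative at 5, with a median of 16 points over the 23 regions and 0.0558 points over all tested. Here too, the regions 20.3 and 13.0 kb downstream and 6.9 and 11.1 kb upstream had passed the filter only through their RA calls. All of these were among the 9 regions higher at an unadjusted p under 0.05. Their positive sign and that count are therefore no test of a response. 4 regions were called in every RA sample and in no BMS493 sample (1.75% of all regions called in either group), those 20.3 and 13.0 kb downstream and 6.9 and 17.9 kb upstream, and none in every BMS493 sample and no RA sample (0.83%). All RA samples ranked above all BMS493 samples at 10 regions (7.51% of all tested regions), and the reverse held at 2 regions (4.48%), 25.3 kb upstream and 1.2 kb into the gene body. The 10 regions include those 20.3 and 13.0 kb downstream and 6.9 kb upstream, so that this count is no test of a response either.

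The smallest adjusted p-values in this comparison belonged to the region 6.9 kb upstream, with 46.7 points (limma adjusted p = 0.0613), and the region 20.3 kb downstream, with 45.7 points (limma adjusted p = 0.0620). Both had passed the filter of 3 samples only through their RA calls. That choice favours a higher value in RA, so that these p-values are no support for a response. The region 34.1 kb upstream (209165 to 209678) ranked at 70.5, 85.6 and 72.5 in RA and at 4.0, 0 and 23.4 in BMS493, a difference of 67.1 ± 19.0 points (SE, limma adjusted p = 0.123), and at 0, 73.1 and 65.3 in DMSO. It thus stood high in every RA sample and in 2 of the DMSO samples and low or uncalled in BMS493. The region 28.7 kb upstream differed by 55.3 points (limma adjusted p = 0.155), and the region 25.3 kb upstream, on the other side of the RAR site, by −36.7 points (limma adjusted p = 0.539).

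Whether a region passed the threshold between RA and BMS493 depended on which DMSO samples shared the fit. Without DMSO replicate 1, which leaves the values of RA and BMS493 as they are, 3 regions were higher in RA, those 20.3 kb downstream and 17.9 and 34.1 kb upstream, where 1.05% of all regions were. In that fit, the regions 20.3 kb downstream and 17.9 kb upstream passed the filter of 3 samples only through their RA calls. This favours a higher value in RA, so that their calls are no support for a response. With lists of equal length 3 were higher, those 45.4 kb downstream and 28.7 and 34.1 kb upstream, where 2.52% of all regions were, and the region 1.2 kb into the gene body was lower, where 1.58% were. Shortening drops peaks of low −log10(q). At 34.1 kb upstream, BMS493 replicates 1 and 3 and NE replicate 2 had 2.18, 3.62 and 3.70 in the full lists. The calls outside RA that remained 45.4 kb downstream and 34.1 kb upstream are not given here. These 2 regions may have passed the filter only through their RA calls, so that their limma calls are no support for a response. The 3 DMSO samples serve as the control of 2 comparisons and as the endodermal side of another, so that these comparisons are not independent.

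**Figure D3:**
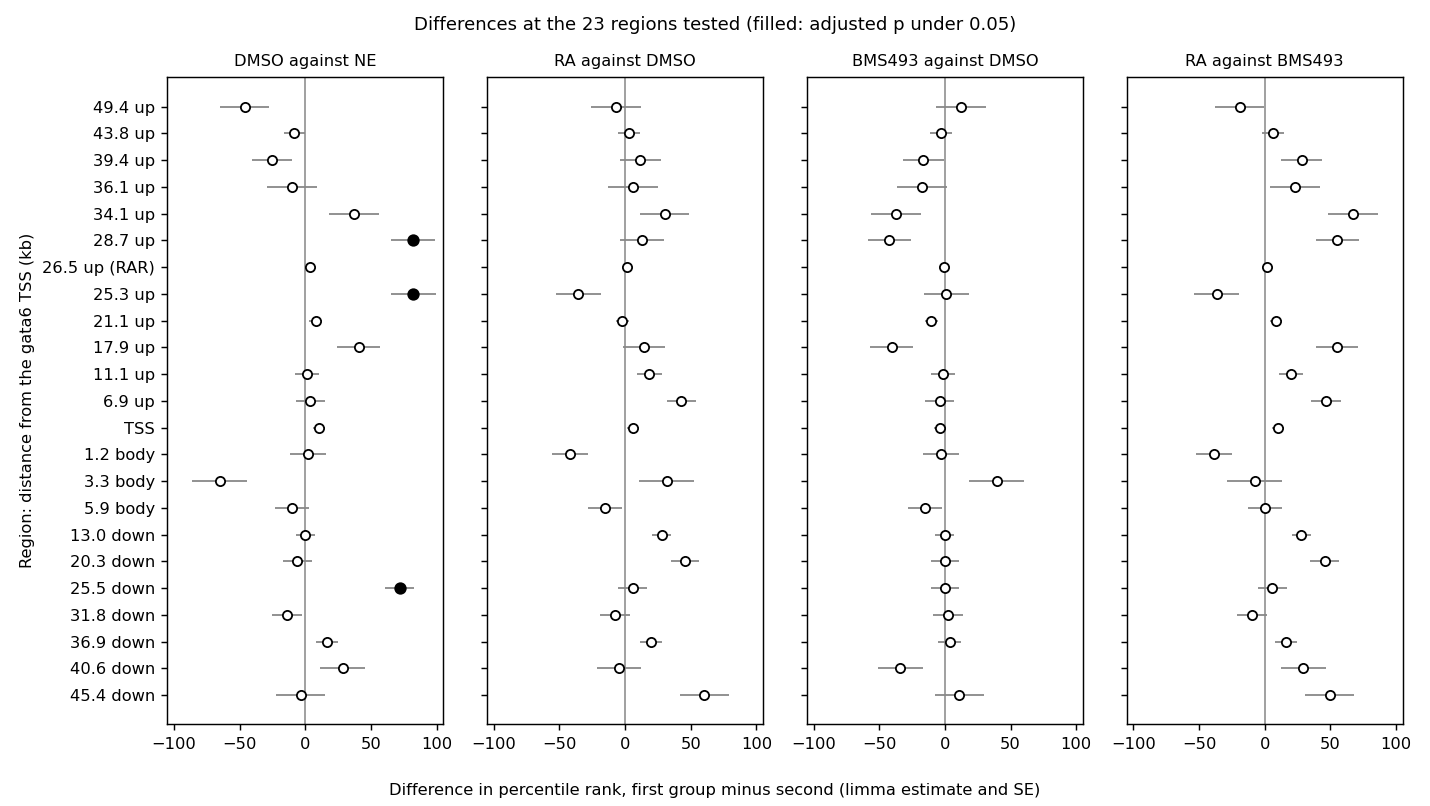
Difference in percentile rank between 2 groups (horizontal axis, first group minus second, limma estimate and SE) at the 23 tested regions (vertical axis, distance from the TSS in kb). Filled points passed an adjusted p under 0.05, which only the regions 25.5 kb downstream and 25.3 and 28.7 kb upstream did, all between DMSO and NE. In RA against BMS493, 17 of the 23 estimates lay above 0, some of them at regions that passed the filter only through their RA calls.

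Of the remaining regions, 2 more were called in all 12 samples or nearly so. The region 43.8 kb upstream was called in all 12, with mean scaled pileups of 1.32 ± 0.133 for NE, 1.19 ± 0.212 for DMSO, 1.57 ± 0.843 for RA and 1.11 ± 0.366 for BMS493 (SD, n = 3 each), and its groups overlapped. By rank, it stood at 84.5, 91.8 and 73.8 in NE and at 64.5, 80.8 and 80.3 in DMSO. In RA it stood at 93.4, 72.6 and 68.6, and in BMS493 at 64.3, 83.2 and 68.8. The region 40.6 kb downstream had a peak in 11 samples and ranked higher in DMSO (64.5, 73.1 and 78.1) than in NE (33.9, 36.2 and 59.8), with a difference of 28.6 ± 17.1 points (SE, limma adjusted p = 0.413).

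The last regions had low or scattered calls. The region 31.8 kb downstream had a peak in all NE samples, in 1 DMSO and 1 BMS493 sample and in no RA sample, and its ranks did not exceed 32.3. The region 36.1 kb upstream was called in 9 samples and its groups overlapped. The region 5.9 kb into the gene body had a peak in 2 NE samples and 1 DMSO sample, and the region 11.1 kb upstream in 2 RA samples and 1 DMSO sample. The 3 regions called in a single sample lay 14.9 kb downstream and 7.1 kb upstream, each in RA replicate 1, and 19.0 kb upstream, in NE replicate 3, and each was 80 bp wide.

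At the edges, the region just inside the window on the low side was that 45.4 kb downstream, and the region just outside (124648 to 125314) ended 10 bp before the window, with a peak in 5 samples and ranks up to 50.5. On the high side the region 49.4 kb upstream was the last inside, and the next region outside (228305 to 228694) had a peak in 9 samples and ranks up to 91.5.

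The RAR-site region of gata6 was also set beside the regions at the RAR sites of the other genes that the study lists as raised by RA with a RAR site nearby. Of the 191 RAR sites of 92 genes, 179 overlapped a merged region, and 89 genes could be compared with gata6. Likeness was the mean absolute difference in percentile rank over the 12 samples, and its median over these genes was 27.5 points. The closest was raraa, which codes for a retinoic acid receptor, with a difference of 0.847 points. It was followed by si:dkey-172f14.2 with 1.35 points, lgals3l, which codes for a galectin-like protein, with 1.75 points, dhrs3b, which codes for a short-chain dehydrogenase/reductase, with 1.80 points, and tspan18b, a tetraspanin gene, with 2.52 points. All of these regions were called in all 12 samples, as were 84 of the 180 regions at RAR sites. The measure favours regions that stand high in every list, and no test was made of it.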

How the data were processed

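The authors aligned reads of each sample to Zv9 with Bowtie2 and called peaks with MACS2 2.1.1.20160309 in each sample alone, without a control library, with tags shifted 40 bp and extended to 80 bp, duplicates limited to 1 and q-values up to 0.05, per the file headers. The deposited pileup is a signal (extended tags at the summit) that the authors did not scale. The deposited fold enrichment is a ratio to local background, and p-values and q-values were deposited as −log10. Sites of RAR and the position of gata6 were read from the supplementary tables of the study. Replicate numbers are those of the labels, from which the NE file headers differ.

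Peaks were merged, and the merged regions checked against bedtools 2.31.1, in Python 3.11.15 (pandas 2.3.3, numpy 2.4.6, scipy 1.17.1). Percentile ranks of the pileup were fitted with limma 3.58.1 (R 4.3.3, trend and robust options) for all 12 samples together on regions called in at least 3 samples, with Benjamini-Hochberg adjustment over all of them. The fit was also run on simulated data, in which only large changes in RA were put in, at regions with higher peaks. That run does not bear on smaller differences or on low peaks such as many of those at this locus. With 3 samples against 3 an exact permutation test cannot go below 0.1, so single values were tested only for 9 endodermal against 3 NE samples. Values were given for each sample for the TSS region, the RAR-site region, regions past an adjusted p of 0.05 or present in every sample of one group and none of another, and regions called in all 12 samples, and other regions were named after their values were seen. The locus, regions and lists were chosen with earlier results of these data known. The alternatives tried were lists of equal length, peaks with a −log10(q) of 3 or more, merging within 100 bp, calls covering 50% of a region, no filter, ranks of −log10(q), log2 of the scaled pileup plus 0.1, the groups compared alone, a replicate block and leaving out each sample.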

Additional observations from a re-analysis of the deposited data

How the results depend on the processing

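The 26 regions are few and many of their peaks are near the calling threshold, so that counts by presence move by single samples, and neither reads nor signal below the threshold were used here. Between DMSO and NE, the 3 regions higher in DMSO became 7 with lists of equal length, 1 with calls covering 50% of a region and 0 in a fit of the groups compared alone, and ran from 3 to 6 when samples were left out. Of all regions tested, 6.68% were higher with lists of equal length, 1280 of 98522 with calls covering 50% and 0 of 95041 in the groups alone. Without single samples, the higher calls over all regions ran from 1448 to 5345. The count of regions lower in DMSO, 0, became 2 with lists of equal length and 1 with ranks of −log10(q), and ran from 0 to 1 without single samples. Over all regions tested, 7.38% were lower with lists of equal length and 5690 of 127026 with ranks of −log10(q). Without single samples, the lower calls over all regions ran from 1935 to 5734. The count present in NE and not in DMSO, 0, became 1 with lists of equal length and ran from 0 to 2 without single samples. For this and the following counts by presence, shares over all regions under the alternatives are not given here. Such counts can therefore not be read as a trait of the locus. Between RA and DMSO, lists of equal length gave 1 region higher and 1 lower by limma, where 1.57% and 0.768% of all regions tested were. They gave 0 present in RA alone in place of 2, and 1 present in DMSO alone in place of 0, while calls covering 50% gave 1 present in RA alone. Between BMS493 and DMSO, the 1 region present in DMSO alone became 0 with a −log10(q) of at least 3, with lists of equal length and with calls covering 50%, and ran from 1 to 2 without single samples, and the count present in BMS493 alone ran from 0 to 1. Between RA and BMS493, lists of equal length gave 3 regions higher and 1 lower by limma, where 2.52% and 1.58% of all regions tested were. They gave 1 present in RA alone in place of 4 and 1 present in BMS493 alone in place of 0. The count of regions higher ran from 0 to 3 without single samples, where the calls over all regions ran from 1 to 1333. The exact permutation test at the RAR-site region gave 1.43 points with ranks of −log10(q), and that at the TSS region gave 45.3 points with calls covering 50% and from 7.83 to 13.2 points without single samples. At the RAR-site region, the difference between BMS493 and DMSO, −0.59 points, ran from −1.55 to 0.62 points without single samples and turned positive without BMS493 replicate 3 (limma adjusted p = 1 in both). Apart from the construction of the alternatives (fewer peaks, fewer samples), the cause was not tested.

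Samples that share a replicate number did not deviate together in every pair of groups. Mean correlations of their deviations ran from 0.129 (BMS493 and DMSO) down to −0.0739 (RA and DMSO). This cannot tell whether the samples were paired. Samples of different numbers were not compared, and the NE file headers carry other numbers than the labels. With the replicate number of the labels as a block, limma called 3 regions of the locus higher and 0 lower in DMSO than in NE. Of all 127026 regions tested, 2618 were higher and 5633 lower. In the other comparisons limma called 0 regions of the locus, as without the block. Over all regions tested, 0 were higher and 1 lower in RA than in DMSO, and 379 higher and 76 lower in RA than in BMS493. Between BMS493 and DMSO, 0 were higher and 0 lower.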

Other observations

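The peaks of 2 regions differed in how they were joined. In the region 36.9 kb downstream, each NE sample held 2 separate peaks that covered 212, 380 and 265 bp, and each of the 9 endodermal samples held 1 peak, which covered 142 bp in DMSO replicate 1 and from 482 to 601 bp in the others. In the region 1.2 kb into the gene body, peaks covered 639, 829 and 776 bp in DMSO, 390, 688 and 671 bp in BMS493, 183, 438 and 231 bp in NE and 653, 0 and 116 bp in RA. At this region the covered length of every DMSO sample exceeded that of every NE sample, while the mean scaled pileup was 1.63 ± 0.647 in DMSO and 1.33 ± 0.499 in NE (SD, n = 3 each), with overlap. Both regions were chosen for this after their values were seen, and no test was made.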
